A study of Danio rerio with 6 samples.

Results

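Transcripts of chemokines and chemokine receptors were measured by real-time PCR in zebrafish embryos that carried a plasmid for NOD1 and in embryos that carried the empty plasmid. The genes were chosen by symbol, as those beginning with CCL, CXC, CCR, CX3C, XCL or XCR, without CXCL12a, CXCL12b and symbols beginning with CXCR4. This rule was set with earlier results of these data known, so shares of members beside those of the plate are descriptive. The rule gave 42 genes, beside 284 other genes of the plate, made up of 21 CC ligands, 9 CXC ligands and 12 receptors. The NOD1 group was microinjected with ptGFP1-NOD1 and the control group with the empty plasmid ptGFP1, both were Danio rerio embryos at 24 hours post fertilization (hpf), and each group had 3 biological replicates with 1 plate per replicate. RNA came from pools, on average of 150 to 200 embryos per group per the labels' protocols, so a plate gives the mean of many whole embryos. Injected plasmids are generally inherited by only some cells of an embryo, and the sources used here do not name the promoter that drives NOD1. In such bulk RNA a change in the number of expressing cells and a change in RNA per cell cannot be told apart.

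Chemokines are small secreted proteins that direct the migration of cells along a gradient, and their receptors are G protein-coupled receptors on the migrating cell. CC and CXC ligands are named for the spacing of the first conserved cysteines, and receptors are named for the ligand class they bind. Zebrafish carry many more chemokine genes than mammals, in fish-specific groups of recent duplicates, so many of them have no single mammalian counterpart. NOD1 is a cytosolic sensor of bacterial peptidoglycan fragments, and in mammalian cells its activation is known to induce chemokines through RIPK2 and NF-kB.

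The measured value was the threshold cycle (Ct), the PCR cycle at which SYBR Green fluorescence crosses a set threshold, so that an earlier Ct means more template. A well above 35 cycles, or with no Ct, was given a Ct of 35. Each gene's Ct was subtracted from the average of 3 housekeeping genes of its plate (ACTB, GAPDH and Tuba1), and the result is called its relative level. This is a log2-like scale on which a higher, less negative value means more transcript, and differences are NOD1 minus control on that scale. Levels of different genes are not compared, since no amplification efficiency per assay was at hand. Each NOD1 plate had 321 gene wells with a Ct under 35, against 314 to 318 on the control plates. The nod1 assay itself was higher in NOD1 embryos by 8.59 ± 0.42 (SE). The mean Ct of the reference genes was 18.27 ± 0.102 in NOD1 and 17.61 ± 0.136 in control plates (SD, n = 3 each; two-sided exact permutation test over plates, p = 0.1, which is the lowest value this design allows). The reference genes were thus 0.655 cycles later in NOD1 plates, and each difference with this scaling includes that amount. The 3 NOD1 plates were run on 1 day and the control plates on 2 earlier days, so run day and group cannot be told apart. Control replicate 1 was the only plate run on its day.

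Testing required a Ct under 35 throughout 1 group or both, which 38 of the 42 genes met. Of the 38, 27 were higher in NOD1 embryos, 0 were lower and 11 did not pass (limma, adjusted p under 0.05). Over all 319 genes tested, 37% were called higher and 15.4% lower. CCL-Cub, CCL21L and CCR9b, which are among the 27, had 2 or 3 control wells above 35 cycles and met the filter only through the NOD1 plates, where they were high. With a Ct under 35 required on all 6 plates, 24 of 34 members were higher and 0 lower, all 24 among the 27, where 37.3% of genes were higher and 15.7% lower. No member was lower at an unadjusted p under 0.05 either, with 0 by limma and 0 by the authors' deposited p-values. All 3 NOD1 plates lay above all 3 control plates for 29 members and below them for 0, where this held for 42.3% and 21.6% of all genes tested. The median difference was 1.55 over the 38 members and 0.32 over all genes tested, so the members' median lay 1.23 above that of the plate.

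The members' calls, and their excess of higher calls over the plate, depended on how the plates were scaled. The distances of the class medians from the plate's median, given below, changed only with quantile and cyclic loess scaling. Members higher and lower numbered 27 and 0 with the reference genes, 19 and 4 with the global mean of the plate, 20 and 3 on raw Ct, 22 and 1 with the global median, 9 and 2 with cyclic loess and 8 and 3 with quantile scaling. The shares of all genes tested that were called higher and lower were 23.8% and 43.9% with the global mean, 22.3% and 42% on raw Ct, 25.4% and 35.4% with the global median, 20.7% and 22.6% with cyclic loess and 18.5% and 24.5% with quantile scaling. Of the members tested, 71.1% were higher by the reference genes, where 37% of all genes tested were. On raw Ct, the global mean or the global median, 50% to 57.9% of members were higher, against 22.3% to 25.4% of all genes. The gap nearly closed after quantile scaling (21.1% of members, 18.5% of all genes) and after cyclic loess (23.7% of members, 20.7% of all genes). The 6 members past the threshold in the same direction under all 10 other scalings were CCL-C25y-like, CCL-C24m, CCL-C2e, CCL-Cua, CXCL-C13d and CCR7. Quantile scaling kept these and also CXCL-C24e and CCR1L, and cyclic loess kept these and also CCL-Cub, CCL-C25v and CCR1L, so that each other rise described below was lost under both. The global mean ended the rises of CCL-C24b, CCL-C25v, CCL-C11b, CCL-C24j, CCL4L, CXCL-C5c, CCR1L and CCR3. Leaving out 1 plate at a time gave 22 to 26 higher members.

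**Figure D1:**
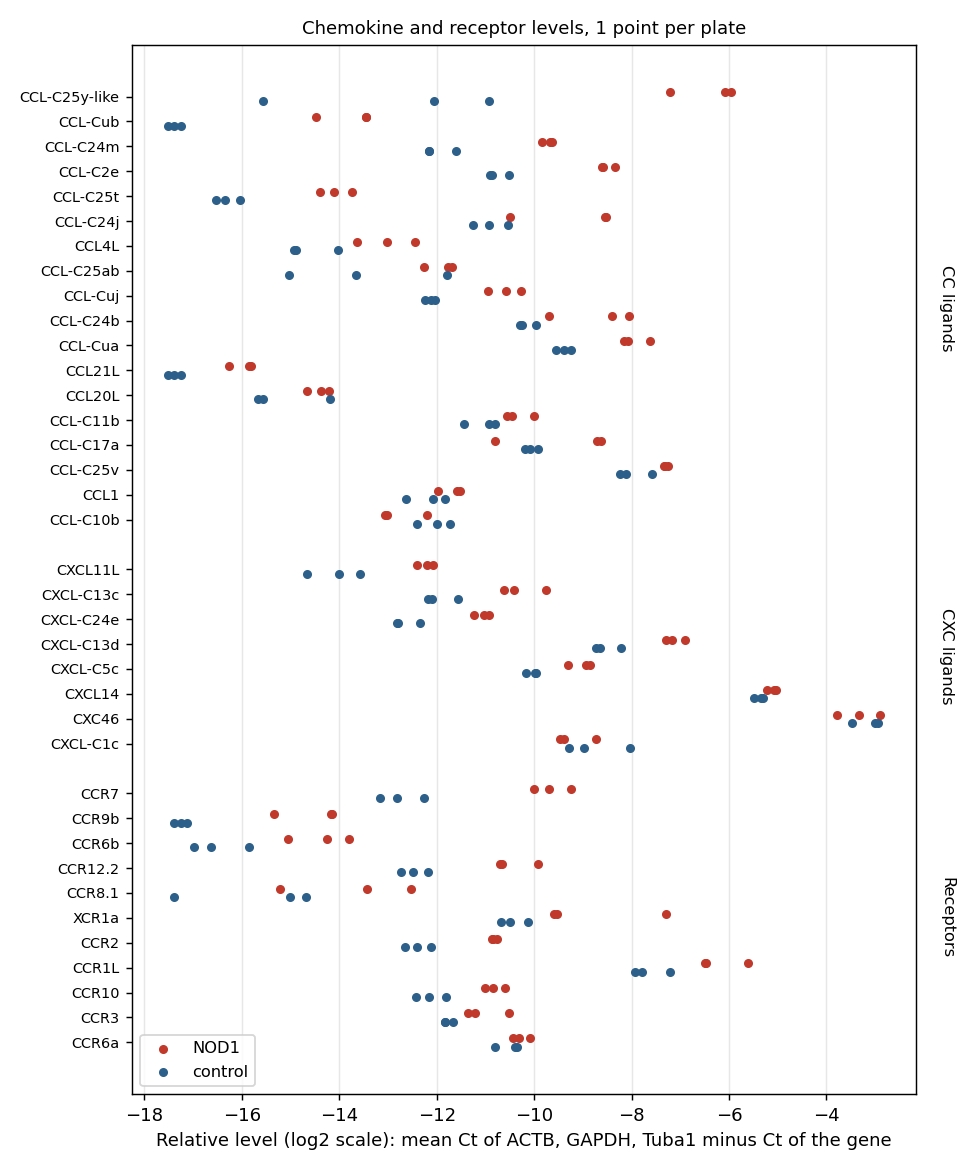
Relative level of 37 tested chemokine and receptor genes on each plate, on a log2 scale (mean Ct of ACTB, GAPDH and Tuba1 minus Ct of the gene). Each point is 1 plate, red for NOD1 and blue for control, and genes are ordered within their class by the size of the difference. The NOD1 points lie to the right of all control points for 28 of the 37 genes drawn, and the points of CCL-C25y-like in control embryos are spread over more than 4 cycles.

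Among the 21 CC ligands, 18 were tested, 13 rose and 5 did not pass, where 37% of all genes tested rose. The largest difference was that of CCL-C25y-like, whose level was -7.21, -6.08 and -5.97 in NOD1 plates, against -15.57, -12.05 and -10.92 in control plates. The groups were far apart, but control replicate 1, the only plate run on its day, lay 3.52 below the nearest control plate. The rise was 6.43 ± 1.22 (SE; 86.3-fold, adjusted p = 0.00761), or 33.6-fold with control replicate 1 left out and 168-fold with control replicate 3 left out. Quantile scaling gave 5.81 and cyclic loess 5.64. This symbol was not matched to a current zebrafish gene, so no function is given for it here.

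CCL-Cub, likewise unmatched, was not measurable within 35 cycles in control embryos. Its Ct was 31.7, 32.9 and 31.7 in NOD1 plates, against 36.2, 36.6 and 35.5 in control plates. With the control wells set to 35, it was at least 12.1-fold higher, and with a ceiling of 40 cycles the difference was 4.72. Because the control wells were set to 1 value, their spread on this scale comes from the reference genes alone, and no standard error or p is given for this gene. Its difference was 1.69 with quantile scaling, where it was not called.

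Next came a group of CC ligands whose plates agreed closely. CCL-C24m, which RefSeq names ccl34b.1, stood at -9.68, -9.84 and -9.64 in NOD1 plates, against -12.16, -11.60 and -12.15 in control plates, a rise of 2.25 ± 0.19 (4.76-fold, adjusted p = 8.52e-04). CCL-C2e, named ccl34a.3 in RefSeq, was at -8.35, -8.59 and -8.60 in NOD1 plates and at -10.90, -10.51 and -10.86 in control plates, higher by 2.24 ± 0.16 (adjusted p = 5.81e-04). Both belong to the fish group of ccl34 genes, and in both the spread within a group was a small part of the difference. CCL-C25t, the ccl39.1 gene, had -14.39, -13.75 and -14.12 in NOD1 plates, against -16.35, -16.03 and -16.53 in control plates, and rose by 2.22 ± 0.22 (adjusted p = 0.00116). Its difference was 0.46 with quantile (adjusted p = 0.186) and 0.35 with cyclic loess scaling (adjusted p = 0.235).

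CCL-Cuj was higher by 1.53 ± 0.19 (adjusted p = 0.00217), with -10.94, -10.27 and -10.58 in NOD1 plates and -12.12, -12.05 and -12.23 in control plates. The unmatched CCL-Cua had -8.16, -8.07 and -7.62 in NOD1 plates, against -9.56, -9.24 and -9.39 in control plates, a rise of 1.44 ± 0.19 (adjusted p = 0.00235). The groups of both genes were separate, though the CCL-Cuj call was lost with quantile (adjusted p = 0.344) and cyclic loess scaling (adjusted p = 0.0946). CCL4L, also unmatched, was at -13.03, -12.44 and -13.64 in NOD1 plates and at -14.90, -14.04 and -14.93 in control plates, higher by 1.58 ± 0.39 (adjusted p = 0.0179). It did not pass without NOD1 replicate 1, control replicate 1 or control replicate 3 (adjusted p = 0.0550 to 0.0579), and its difference was 0.050 under quantile and -0.068 under cyclic loess scaling. CCL-C25v (ccl39.3) and CCL-C11b (ccl44) rose least, by 0.68 ± 0.19 (adjusted p = 0.0294) and 0.72 ± 0.23 (adjusted p = 0.0466).

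The CCL-C25v plates read -7.25, -7.34 and -7.31 for NOD1, against -8.24, -7.59 and -8.12 for control. For CCL-C11b they read -10.01, -10.55 and -10.46 for NOD1, against -10.92, -10.81 and -11.43 for control. The groups were separate but close, and both calls were fragile. CCL-C25v lost its call when any 1 plate other than control replicate 2 was left out (adjusted p = 0.0662 to 0.0944), and CCL-C11b when any of the 6 was (0.0520 to 0.115). CCL-C11b was at -0.53 under quantile and -0.35 under cyclic loess scaling, neither past the threshold. On raw Ct the difference was 0.025 for CCL-C25v and 0.060 for CCL-C11b, and with the global mean 0.071 and 0.11. None of these passed, whereas CCL-C25v passed with cyclic loess scaling at 0.62.

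In NOD1 replicate 3, 3 CC ligands stood apart from the other NOD1 plates. CCL-C24j (ccl34b.4) was at -8.52, -8.55 and -10.49 in NOD1 plates, against -11.26, -10.54 and -10.93 in control plates. CCL-C24b (ccl34b.9) was at -8.39, -8.05 and -9.69 in NOD1 plates, against -10.29, -9.96 and -10.25 in control plates. CCL-C17a, which was not matched, was at -8.71, -8.62 and -10.80 in NOD1 plates, against -10.08, -10.19 and -9.92 in control plates. For all 3 the first 2 NOD1 replicates agreed to within 0.35, and NOD1 replicate 3 lay 1.30 to 2.09 below the nearer of them.

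CCL-C24j (1.73 ± 0.58, adjusted p = 0.0491) and CCL-C24b (1.46 ± 0.44, adjusted p = 0.0359) passed the threshold, and CCL-C17a did not (0.69 ± 0.60, adjusted p = 0.368). Without NOD1 replicate 3 the differences were 2.38 for CCL-C24j (adjusted p = 0.00297), 1.95 for CCL-C24b (adjusted p = 0.00271) and 1.40 for CCL-C17a (adjusted p = 0.00320). Leaving out any other plate ended the calls of CCL-C24j (adjusted p = 0.0752 to 0.141) and CCL-C24b (0.0640 to 0.103). Without the filter, or with a ceiling of 40 cycles (adjusted p = 0.0525), CCL-C24j also narrowly lost its call. The neighbouring CCL-C24m had no such gap, with -9.64 in NOD1 replicate 3.

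The other CC ligands that did not pass were CCL-C25ab, CCL20L, CCL1 and CCL-C10b. CCL-C25ab (ccl35.2) had a steady level in NOD1 plates, at -11.69, -12.27 and -11.77, and a wide one in control plates, at -15.03, -13.65 and -11.78. Its difference was 1.58 ± 0.80 (adjusted p = 0.153), and 2.43 without control replicate 3 (adjusted p = 0.0156). CCL20L differed by 0.72 ± 0.42 (adjusted p = 0.199), and by 1.20 without control replicate 1 (adjusted p = 0.00981), which was 1.37 above the other control plates.

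CCL1 and CCL-C10b, which RefSeq names ccl27a and ccl27b, are relatives of mammalian CCL27, a chemokine of the skin. CCL-C10b had the lowest difference of any member, with -13.02, -13.06 and -12.19 in NOD1 plates, against -11.99, -11.73 and -12.41 in control plates. The groups overlapped, and its difference was -0.71 ± 0.30 (adjusted p = 0.1002). It fell by 1.00 without NOD1 replicate 3 (adjusted p = 0.0232), and it was lower with the global mean (-1.32), the global median (-1.19), raw Ct (-1.37), quantile (-1.96) and cyclic loess scaling (-2.10), with adjusted p between 0.00458 and 0.0203. CCL1 differed by 0.48 ± 0.25 (adjusted p = 0.156).

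**Figure D2:**
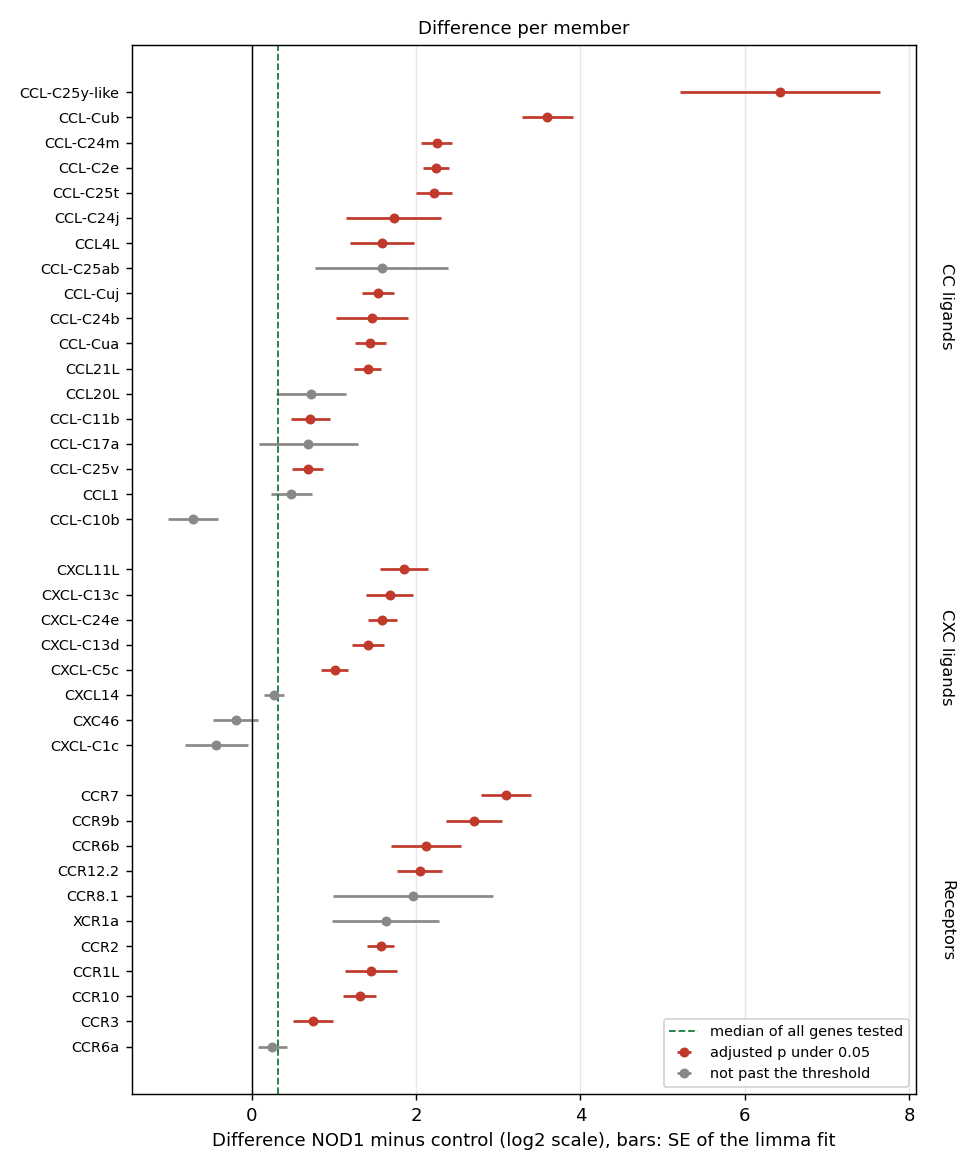
Difference between NOD1 and control embryos for 37 tested genes (NOD1 minus control, log2 scale), with bars for the standard error of the limma fit. Red points passed an adjusted p under 0.05 and grey points did not. The dashed line is the median of all 319 genes tested, at 0.32, and 26 of the 37 members drawn are red, all of them to the right of 0.

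Of the 9 CXC ligands, 8 were tested, 5 rose and 3 did not pass, where 37% of all genes tested rose. CXCL11L is the zebrafish gene cxcl11.1, a relative of the interferon-induced T-cell chemokine CXCL11 of mammals. It was at -12.07, -12.20 and -12.41 in NOD1 plates, against -14.67, -14.01 and -13.58 in control plates, and rose by 1.86 ± 0.30 (3.62-fold, adjusted p = 0.00443). CXCL-C13c, the gene cxcl8b.3, belongs to the CXCL8 group, which attracts neutrophils. Its levels were -9.76, -10.62 and -10.41 in NOD1 plates, against -11.56, -12.09 and -12.18 in control plates, a rise of 1.68 ± 0.29 (adjusted p = 0.00550). The plate's IL8 assay, left out of the members by its symbol, overlapped between the groups and did not pass (0.97 ± 0.77, adjusted p = 0.329).

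CXCL-C24e (cxcl32b.1) was at -11.03, -10.94 and -11.23 in NOD1 plates and at -12.80, -12.34 and -12.82 in control plates, higher by 1.59 ± 0.18 (adjusted p = 0.00154). CXCL-C13d (cxcl19) had -7.16, -6.90 and -7.29 in NOD1 plates, against -8.74, -8.22 and -8.65 in control plates, and rose by 1.42 ± 0.19 (adjusted p = 0.00260). CXCL-C5c (cxcl20) rose by 1.01 ± 0.17 (adjusted p = 0.00465), with -8.93, -8.85 and -9.31 in NOD1 plates and -10.18, -9.97 and -9.98 in control plates. For these 5 ligands no NOD1 plate overlapped a control plate, and each passed with any 1 plate left out. With quantile scaling CXCL-C24e and CXCL-C13d passed (0.52 and 1.17), and with cyclic loess scaling only CXCL-C13d did (1.32). CXCL-C5c also lost its call with the global mean (adjusted p = 0.0589).

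The 3 CXC ligands that did not pass were CXCL14, CXC46 and CXCL-C1c. CXCL14, a conserved chemokine with roles in development, was separate between the groups by a small margin, at -5.07, -5.04 and -5.21 in NOD1 plates, against -5.49, -5.34 and -5.30 in control plates (0.27 ± 0.12, adjusted p = 0.106). It was -0.34 with the global mean (adjusted p = 0.0400), so its sign depended on the scaling. CXC46 and CXCL-C1c are the paired zebrafish genes cxcl18a.1 and cxcl18b, of which cxcl18b is known in zebrafish as an inflammatory chemokine that attracts neutrophils. CXCL-C1c was at -9.48, -9.39 and -8.72 in NOD1 plates, against -9.28, -8.03 and -8.99 in control plates (-0.43 ± 0.38, adjusted p = 0.373), and CXC46 at -3.32, -2.89 and -3.79 in NOD1 plates, against -3.01, -2.95 and -3.47 in control plates (-0.19 ± 0.27, adjusted p = 0.561). Their groups overlapped. On raw Ct both passed as lower, by -1.09 for CXCL-C1c (adjusted p = 0.0396) and -0.85 for CXC46 (adjusted p = 0.0163). Both also passed as lower with the global mean, at -1.04 for CXCL-C1c (adjusted p = 0.0459) and -0.80 for CXC46 (adjusted p = 0.0331). With quantile scaling CXCL-C1c passed as lower (-1.16, adjusted p = 0.0408) and CXC46 did not pass.

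All 12 receptors were tested, 9 rose and 3 did not pass, where 37% of all genes tested rose. With the reference genes the difference was above 0 for all 12, where this held for 210 of the 319 genes tested. CCR6a was below 0 with the global mean, the global median, raw Ct, quantile and cyclic loess scaling. CCR3 was also below 0 with quantile and cyclic loess scaling, and CCR6b with quantile scaling. CCR7, the receptor that in mammals brings dendritic cells and T cells into lymph nodes, had the largest rise. Its level was -10.01, -9.70 and -9.25 in NOD1 plates, against -12.26, -13.16 and -12.82 in control plates, a difference of 3.09 ± 0.30 (8.54-fold, adjusted p = 0.00108). Quantile scaling gave 2.09 and cyclic loess 1.95, both past the threshold. The lowest NOD1 plate was more than 2 above the highest control plate.

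CCR9b, a relative of the CCL25 receptor that in mammals serves homing to thymus and gut, was near the limit of detection in control embryos. Its Ct was 32.4, 32.5 and 33.5 in NOD1 plates, against 36.3, 35.4 and 34.6 in control plates, of which 2 were set to 35. On this scale it was at least 6.52-fold higher, and its difference was 3.27 with a ceiling of 40 cycles and 2.58 with values over 35 missing. No standard error or p is given, since 2 of the 3 control values are the ceiling. CCR6b, one of a pair of relatives of the mammalian CCL20 receptor, was at -13.80, -14.25 and -15.06 in NOD1 plates and at -16.64, -16.98 and -15.85 in control plates, higher by 2.12 ± 0.43 (adjusted p = 0.00913). Its difference was -0.12 with quantile scaling (adjusted p = 0.824). CCR6a, the other of the pair, was at -10.43, -10.30 and -10.08 in NOD1 plates and at -10.36, -10.81 and -10.39 in control plates. The groups of CCR6a overlapped (0.25 ± 0.18, adjusted p = 0.270), and it was -0.89 with quantile (adjusted p = 0.00622) and -0.76 with cyclic loess scaling (adjusted p = 0.0312).

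Further receptors rose by smaller amounts. CCR12.2 (ccr12b.2), of a receptor group of fish, had -9.91, -10.69 and -10.66 in NOD1 plates, against -12.48, -12.74 and -12.18 in control plates, and rose by 2.04 ± 0.27 (adjusted p = 0.00242). The assay called CCR3 maps by accession to ccr12a of the same group, and its NOD1 values of -10.51, -11.21 and -11.35 lay just above its control values of -11.82, -11.67 and -11.82. The CCR3 difference was 0.75 ± 0.24 (adjusted p = 0.0455), lost without NOD1 replicate 2 or without any 1 control plate (adjusted p = 0.0712 to 0.115), and below 0 under quantile (-0.59) and cyclic loess scaling (-0.43). On raw Ct the CCR3 difference was 0.092 and with the global mean 0.14, neither past the threshold. With the reference genes CCR12.2 and CCR3 had separate groups, with a wide gap for the first and a narrow gap for the second.

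CCR2 is named for the mammalian receptor that draws monocytes to CCL2. It had -10.75, -10.85 and -10.87 in NOD1 plates, against -12.65, -12.13 and -12.41 in control plates, and rose by 1.57 ± 0.16 (adjusted p = 0.00135). The CCR2 groups did not overlap. CCR1L, which was not matched, had -6.46, -6.50 and -5.62 in NOD1 plates and -7.93, -7.22 and -7.79 in control plates, a rise of 1.46 ± 0.32 (adjusted p = 0.0116). CCR10, in mammals the receptor of CCL27 and CCL28, was at -10.60, -10.85 and -11.00 in NOD1 plates, against -12.15, -11.82 and -12.43 in control plates, higher by 1.32 ± 0.20 (adjusted p = 0.00400). The CCR10 groups were separate, but the difference was 0.045 under quantile and 0.13 under cyclic loess scaling.

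The other 2 receptors that did not pass had outlying plates, XCR1a in the NOD1 group only and CCR8.1 in both groups. XCR1a (xcr1a.1), a relative of the receptor that marks cross-presenting dendritic cells in mammals, was at -7.29, -9.59 and -9.52 in NOD1 plates, against -10.13, -10.50 and -10.67 in control plates. NOD1 replicate 1 was 2.23 above the other NOD1 plates, and the groups did not overlap. Its difference was 1.63 ± 0.65 (adjusted p = 0.0820), and without NOD1 replicate 1 it was smaller but past the threshold (0.88, adjusted p = 0.0227). CCR8.1 was at -15.23, -13.44 and -12.52 in NOD1 plates, against -17.39, -15.02 and -14.68 in control plates, with 1 control well set to 35 (1.97 ± 0.97, adjusted p = 0.143). Its replicate 1 was lowest in both groups, 1.79 below the nearest NOD1 plate and 2.37 below the nearest control plate.

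The tested members that rose were 13 of 18 CC ligands (72.2%), 5 of 8 CXC ligands (62.5%) and 9 of 12 receptors (75.0%), where 37% of all genes tested did. Their median differences were 1.50 for CC ligands, 1.21 for CXC ligands and 1.75 for receptors, against 0.32 for all genes tested. The ranges overlapped widely, from -0.71 to 6.43 for CC ligands, from -0.43 to 1.86 for CXC ligands and from 0.25 to 3.09 for receptors. All 3 NOD1 plates lay above all 3 control plates for 13 of 18 CC ligands, 6 of 8 CXC ligands and 10 of 12 receptors, where 42.3% of all genes tested did. These counts include CCL-Cub, CCL21L and CCR9b, which met the filter only through the NOD1 plates. A Ct under 35 on all 6 plates left 16 CC ligands, 8 CXC ligands and 10 receptors. Of these, 11, 5 and 8 were higher, where 37.3% of genes were. Their median differences were 1.50, 1.21 and 1.60, against 0.28 for all genes so filtered. No test between classes was made.

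The class medians were above 0 under all 10 other scalings. They lay 1.18 (CC ligands), 0.90 (CXC ligands) and 1.43 (receptors) above the median of all genes tested with the reference genes, and the scalings that move a whole plate by 1 amount leave these distances as they are. With quantile scaling the distances were 0.42, 0.43 and 0.54, and with cyclic loess 0.38, 0.35 and 0.56. Receptors had the highest median under each scaling, and the order of the ligand classes turned with quantile scaling.

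**Figure D3:**
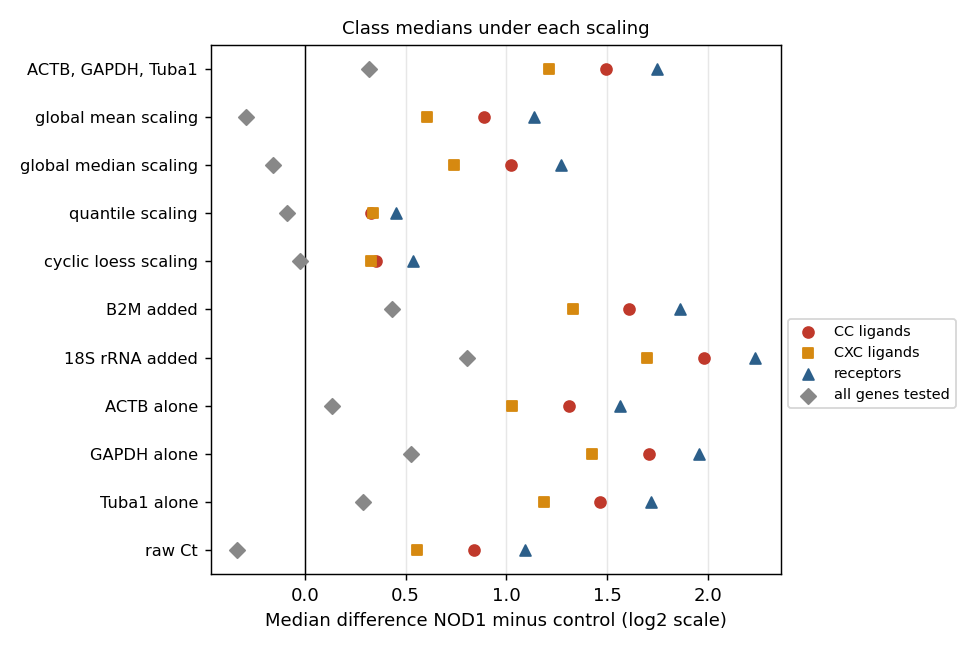
Median difference between NOD1 and control embryos (NOD1 minus control, log2 scale) of CC ligands, CXC ligands, receptors and all genes tested, under the reference genes and 10 other scalings. The class medians stay right of 0 in each row, and they come closest to the median of all genes with quantile and cyclic loess scaling.

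The chemokine assays were late on the plate, and late assays as a whole were higher in NOD1 embryos. The median of the members' mean Ct was 28.6 in NOD1 and 29.6 in control plates, where over all genes tested it was 26.5 in NOD1 and 26.4 in control plates. Among genes with a mean Ct of 29 or later over the 6 plates, 16 of 21 members (76.2%) and 31 of 55 other genes (56.4%) were called higher, with median differences of 1.59 and 1.28. Between 26 and 29 cycles the counts were 8 of 12 members (66.7%) and 39 of 87 other genes (44.8%), with medians of 1.45 and 0.68. Before 26 cycles they were 3 of 5 members and 21 of 139 other genes (15.1%), with medians of 0.68 and -0.082. The part of Ct itself in the members' rises was not tested.

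**Figure D4:**
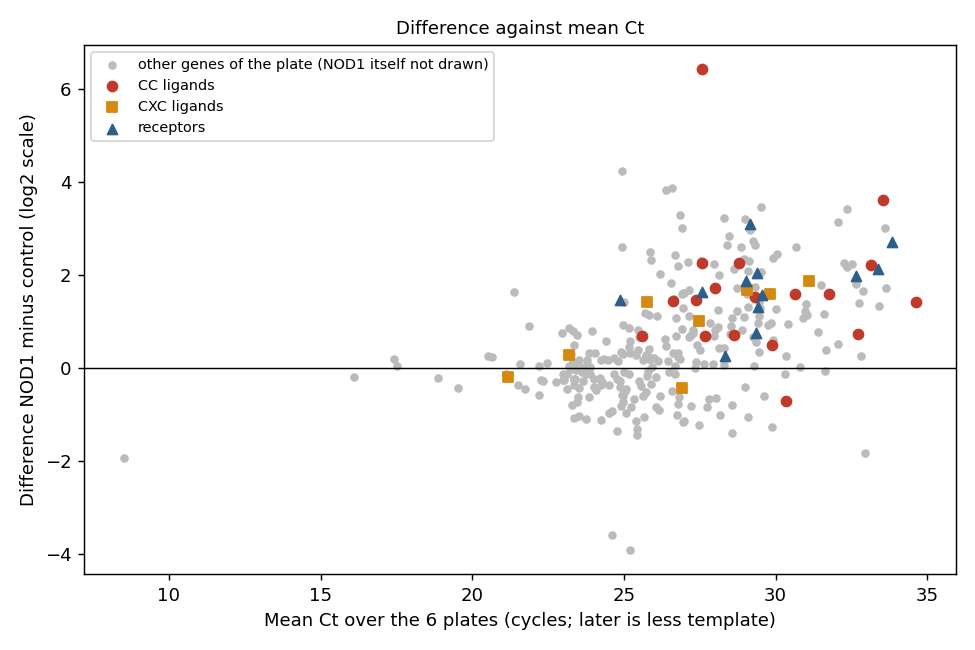
Difference between NOD1 and control embryos (NOD1 minus control, log2 scale) against the mean Ct over the 6 plates in cycles, with 1 point per gene. Colored symbols are CC ligands, CXC ligands and receptors, and grey points are the other genes tested without nod1 itself. Grey points lie around 0 before 26 cycles (median -0.082) and mostly above it from 29 cycles on (median 1.28).

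Wells at the ceiling were more frequent in control embryos, with 5 of 126 member wells above 35 cycles or undetermined on NOD1 plates and 16 of 126 on control plates. They belonged to 8 genes. CCL21L, which maps by accession to ccl25a, a relative of the mammalian thymus and gut chemokine CCL25, had a Ct of 34.5, 34.2 and 34.0 in NOD1 plates, against 35.4, 36.5 and 36.2 in control plates. With the control wells set to 35 it was at least 2.66-fold higher, and the difference was 2.44 with a ceiling of 40 cycles. The spread of the control values is that of the reference genes alone, so no standard error or p is given. With quantile and cyclic loess scaling it was -0.21 and -0.71 and did not pass.

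The 4 members left out of the test were late in both groups. CCL-Cue (ccl33.2) had a Ct of 32.8, 35.6 and 32.9 in NOD1 plates, against 33.9, 35.8 and 34.1 in control plates. CCL-CUi (ccl36.1) had 32.6, 36.8 and 31.9 in NOD1 plates, against 33.0, 35.1 and 33.1 in control plates. In both genes replicate 2 was the latest plate of each group. CCL-C24a, the gene ccl20b, had 35.6, 34.1 and 34.5 in NOD1 plates, against 32.5, 35.2 and 36.2 in control plates, with the earliest well in control replicate 1. CXC64 (cxcl11.8) had 35.2 and 34.3 in NOD1 replicates 1 and 2 and no Ct in replicate 3, against 36.3, 36.8 and 35.9 in control plates. With no filter, CCL-Cue (1.43, adjusted p = 0.0981), CCL-CUi (1.21, adjusted p = 0.296) and CCL-C24a (0.31, adjusted p = 0.742) did not pass. CXC64 differed by 0.89 and passed (adjusted p = 0.0394), but its 3 control wells were all set to 35, so that p does not cover its own spread. In the authors' deposited table CXC64 had a ratio of 1.86 with a p of 0.0438.

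Ligands and receptors that pair in mammals can be read side by side, with the pairing as background. For CCL25 and CCR9, the assays CCL21L (ccl25a) and CCR9b were both higher with the reference genes, by at least 2.66-fold and at least 6.52-fold. Both were at or near the ceiling in control embryos and met the filter only through the NOD1 plates. CCL21L was -0.21 and -0.71 with quantile and cyclic loess scaling, CCR9b was 0.79 and 0.71, and none of these passed. For CCL27 and CCR10, the ligand assays CCL1 and CCL-C10b did not pass (0.48 and -0.71), whereas CCR10 rose by 1.32. For CCL20 and CCR6, CCL20L did not pass, CCL-C24a was not tested, CCR6b rose by 2.12 and CCR6a did not pass.

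Of the 42 members, 36 were matched to a current gene in RefSeq (assembly GRCz12tu), 27 by accession, 4 by symbol and 5 by synonym, and no pair of them shared a gene. Several lie next to each other in that assembly. CCL-C24m, CCL-C24j, CCL-C24b and CXCL-C24e follow each other in this order with 1, 3 and 2 other protein-coding genes between them. All 4 rose, by 2.25, 1.73, 1.46 and 1.59, where 71.1% of the members tested and 37% of all genes tested did. The calls of CCL-C24j and CCL-C24b were fragile, as described above, and neither passed with quantile or cyclic loess scaling. CXCL-C13d and CXCL-C13c are direct neighbours that rose by 1.42 and 1.68, and CXCL11L and CXCL-C5c are direct neighbours that rose by 1.86 and 1.01. Neighbours did not always share a call, and whether they did so more often than other members was not tested. CCL-C2e rose by 2.24 and the adjacent CCL20L did not pass (0.72), and CCL-Cuj rose by 1.53 beside CCL-C25ab, which did not pass (1.58).

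Cytokines that are known in mammals to induce chemokines were counted from a list of 11, of which 8 were on the plate. Like the other lists below, this list was drawn up with earlier results of these data known, so its count is descriptive. All 8 rose, where 37% of all genes tested did, with a median difference of 2.45, among them tnfa by 2.59 ± 0.48 (adjusted p = 0.00719), IL1B by 1.62 ± 0.24 (adjusted p = 0.00348) and ifng1-1 by 3.22 ± 0.62 (adjusted p = 0.00823). These cytokines were late assays, with a mean Ct of 26.5 to 32.4 in NOD1 and 27.4 to 34.8 in control plates. Among genes outside the members, 44.8% of those from 26 to 29 cycles and 56.4% of later ones were called higher. The plate held 7 core genes of NF-kB signalling, of which 3 rose, 1 fell and 3 did not pass, with a median of 0.048, and these shares lie near the 37% higher and 15.4% lower of all genes tested. The rise of NFKBIA, the inhibitor that NF-kB itself induces, was 0.85 ± 0.17 (adjusted p = 0.00846), and RELA, a subunit of NF-kB, differed by -0.37 ± 0.15 (adjusted p = 0.0777). Of 5 genes of the interferon-gamma relay, 2 rose and 3 did not pass, again near that share of the plate, with STAT1b, a transcription factor of interferon signalling, higher by 2.12 ± 0.44 (adjusted p = 0.00969). These lists are given with the reference genes only, which were 0.655 cycles later in NOD1 plates. Before scaling, NFKB1 had a mean Ct of 29.4 in NOD1 and 29.3 in control plates, and NFKBIA 23.1 and 23.3. BCL3, the other of the 3 that rose, had 26.6 and 27.3, and STAT1b 27.9 and 29.4. All 8 cytokines had an earlier mean Ct in NOD1 plates.

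Leukocyte genes, which could carry chemokine receptors into the sample, went both ways. Of 5 myeloid markers on the plate, SPI1 (0.81), CEBPB (1.48) and IRF8 (0.97) rose, and CSF1R (-1.17) and CSF2RB (-1.84) fell. Their summed level was -6.42 to -5.98 in NOD1 plates and -6.81 to -6.65 in control plates. For this and the lymphoid sum, levels were added on the linear scale and given as log2, so early assays weigh most. Assay efficiencies were not known, and CSF2RB, with a mean Ct of 34.2 in NOD1 and 31.7 in control plates, added little. Of the 2 markers listed as lymphoid, IL7R rose by 2.35 ± 0.50 (adjusted p = 0.0111). The other, PTPRC, is the pan-leukocyte antigen CD45, and it differed by -0.011 ± 0.14 (adjusted p = 0.952). Their summed level was -8.71 to -8.41 in NOD1 plates and -9.32 to -9.02 in control plates. With PTPRC in it, this sum is not one of lymphoid cells alone. The erythroid marker EPOR was lower by -1.01 ± 0.16 (adjusted p = 0.00411). None of these markers was at the ceiling in all 3 plates of a group. The marker values use the reference genes only, which were 0.655 cycles later in NOD1 plates. That is more than the gap between the groups in either sum. Before scaling, SPI1 had a mean Ct of 25.4 in NOD1 and 25.5 in control plates, IRF8 27.7 and 28.0, and CEBPB 26.2 and 27.1. PTPRC had 27.7 and 27.0, and IL7R 28.1 and 29.8. Their part in the chemokine and receptor differences was not tested.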

How the data were processed

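Per the file headers, plates were read with SDS software under an automatic baseline and a manual threshold of 0.2. The deposited Ct is a raw score per well, not normalized. The authors' deposited table gives, per its header, group averages of delta Ct (log2-like), levels and the ratio of NOD1 over control on a linear scale, a p-value and a signed fold score. Its delta Ct was recomputed from the plates for every gene to within a millionth of a cycle, using a ceiling of 35 cycles and ACTB, GAPDH and Tuba1.

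The filter asked for a Ct below 35 throughout 1 group or both, which kept 319 genes. Their relative levels were fitted with limma 3.58.1 in R 4.3.3 (lmFit and eBayes), all 6 plates in 1 model, and two-sided p-values were adjusted by Benjamini-Hochberg over the 319 genes. Errors of differences are standard errors of that fit. The limma step was tested on simulated data drawn around the scaled levels. That simulation did not cover the ceiling, the filter or the scaling. Per-assay efficiency and depth are not given in the sources used here, and 3 plates per group limit the precision. The members and lists were chosen with earlier results of these data known. Members past the threshold and members with a well above 35 cycles are given plate by plate. Symbols were taken from the deposited layout, and wells were joined by position. No sequences were used, and gene positions in RefSeq served only to order neighbouring genes. The values of 1 receptor are not reported here, though the counts and medians include it.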

Additional observations from a re-analysis of the deposited data

How the results depend on the processing

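Each tested gene was refitted under 24 alternatives, which gave 899 values for the members. Of these, 750 kept the direction and side of the threshold, 98 kept the direction but lost a call, 23 gained 1 and 28 changed sign, 8 of them in genes that had a call and lost it. Alternatives that changed only the filter, the replicate block or the p-values left each difference as it was. The direction could not turn there, and the 750 partly reflect this. 21 of the 27 rises passed with any 1 plate left out.

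With the global mean, 76 genes were higher and 140 lower, of which 4 members were lower and 8 CC ligands higher, and the medians of CC ligands, CXC ligands and receptors were 0.89, 0.60 and 1.14. With the global median, 113 genes and 1 member were lower, with medians of 1.02, 0.74 and 1.27. With quantile scaling 59 genes were higher and 78 lower, 8 members higher and 3 lower, with 4 CC ligands, 2 CXC ligands and 2 receptors higher and medians of 0.33, 0.34 and 0.45. With cyclic loess scaling 66 genes were higher, 9 members were higher and 2 lower, with 6 CC ligands, 1 CXC ligand and 2 receptors higher and medians of 0.36, 0.33 and 0.54. On raw Ct 71 genes were higher and 134 lower, 3 members were lower and the medians were 0.84, 0.56 and 1.09. With 18S rRNA added 195 genes were higher and 18 lower, with medians of 1.98, 1.70 and 2.23. The 18S rRNA assay itself differed by -1.95 ± 0.15 with the reference genes (limma, adjusted p = 6.82e-04). Its mean Ct was 9.82 in NOD1 and 7.21 in control plates, and all NOD1 plates lay below all control plates in level. With GAPDH alone 26 genes were lower and the CC ligand and receptor medians were 1.71 and 1.96, and with ACTB alone the CC ligand median was 1.31. With the authors' deposited p-values 8 CC ligands were higher. The median of all genes, at 0.32, was below 0 on raw Ct (-0.34), under cyclic loess (-0.025) and quantile scaling (-0.091) and with either global centre (-0.29 for the mean, -0.16 for the median). On raw Ct each difference is lower by 0.655, the amount by which the reference genes were later in NOD1 plates. The cause of that delay, and of the moves with quantile and cyclic loess scaling, was not tested.

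With 1 plate left out, 96 to 113 genes were higher and 31 to 45 lower, 22 to 26 members higher and 0 to 1 lower, and 8 to 12 CC ligands, 5 CXC ligands and 8 to 10 receptors higher. The lower member, without NOD1 replicate 3, was CCL-C10b. The class medians were 1.39 to 1.52, 1.11 to 1.33 and 1.59 to 1.83.

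Signs turned with quantile scaling for CCL-C11b (-0.53), CCL-C17a (-0.20), CCL1 (-0.71), CCL20L (-1.08), CCL21L (-0.21), CCR3 (-0.59), CCR6a (-0.89) and CCR6b (-0.12). With cyclic loess scaling they turned for CCL-C11b (-0.35), CCL-C17a (-0.14), CCL1 (-0.79), CCL20L (-1.08), CCL4L (-0.068), CCL21L (-0.71), CCR3 (-0.43) and CCR6a (-0.76). With the global mean they turned for CCL1 (-0.12), CXCL14 (-0.34) and CCR6a (-0.36), with the global median for CXCL14 (-0.20) and CCR6a (-0.22), and on raw Ct for CCL1 (-0.17), CXCL14 (-0.38) and CCR6a (-0.40). CXC46 was 0.29 with 18S rRNA added, 0.018 with GAPDH alone and between -0.41 and 0.031 with 1 plate left out, where it was above 0 without NOD1 replicate 3 only, and CXCL-C1c was 0.056 with 18S rRNA added. Of these genes, CXCL14 with the global mean and CCR6a with quantile and cyclic loess scaling passed in the turned direction.

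No pairing by the replicate numbers shared by the groups was seen across genes. Deviations from the group means of same-numbered plates correlated at 0.11, 0.032 and -0.022, and not every plate correlated best with its own number. These correlations rest on too few plates to exclude pairing. With the replicate block 111 genes were higher and 40 lower, and 25 members were higher. The block ended the calls of CCL-C25v, CCL-C11b, CCL-C24j and CCR3 (adjusted p = 0.0524 to 0.0681), and CCR8.1 (adjusted p = 0.00663) and XCR1a (adjusted p = 0.0468) passed.

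Late wells limit sizes. Where control wells were set to 35, folds are lower bounds for this scaling only.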
